A study of Mus musculus with 8 samples.

Results

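Primitive streak and Cdx transcription factors were followed across embryonic stem (ES) cells and embryoid bodies, which are floating clumps of differentiating ES cells, on 8 Affymetrix arrays. The list held 10 genes: T, Mixl1, Eomes, Mesp1, Evx1, Gsc, Lhx1, Cdx1, Cdx2 and Cdx4. Every probe set to which the platform annotation gave exactly 1 of these symbols was taken, which found 12 probe sets for 9 of the 10 genes, among 18193 genes with such a probe set. No probe set is named for T here, and T was not analysed here. A gene's level is that of its brightest probe set by the mean of the 8 arrays unless another is named, in log2 units.

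All samples came from CCE cells, a mouse ES cell line of the 129/Sv strain, grown on gelatin with serum and leukemia inhibitory factor. There were 2 arrays of embryoid bodies from cells given a lentivirus with mouse Bmi1 cDNA, 2 of embryoid bodies from cells given the empty vector, 2 of undifferentiated ES cells given the Bmi1 virus, and 2 of control ES cells, of which 1 was untreated and 1 carried the empty vector. Infected cells were sorted for eGFP, and embryoid bodies were collected at day 10. The labels do not say whether a group was a clone or a pool, or whether replicates were separate cultures, so p-values measure no more than array-to-array spread, part of which may be technical.

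The primitive streak is the site in the embryo where epiblast cells leave to form mesoderm and endoderm, under Nodal, Wnt and BMP signals. T, Mixl1, Eomes, Mesp1, Evx1, Gsc and Lhx1 encode transcription factors of the streak or of cells that leave it, and in differentiating ES cells they come on for a short time before later mesoderm genes. Cdx1, Cdx2 and Cdx4 are homeobox factors of the posterior body that set Hox gene expression and, in ES cells, bear on blood formation. Cdx2 and Eomes also serve the trophoblast, the lineage that forms the placenta, and Cdx1 and Cdx2 the gut.

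Several properties of the arrays touch every value below. Bmi1 itself, a subunit of Polycomb repressive complex 1, read lower where the label says Bmi1, at 7.48 to 8.51 in embryoid bodies labelled Bmi1 against 9.35 to 9.67 in vector embryoid bodies, and at 5.68 to 6.28 in ES cells labelled Bmi1 against 7.41 to 7.74 in control ES cells. No source used here says whether its probe sets lie within the virus cDNA, and samples are called by their label, "labelled Bmi1". The distributions of values formed 3 sets. Embryoid bodies of replicate 1 made up the first, those of replicate 2 the second, and ES cells the third. Sorted values differed by 0.0325 on average at most inside a set and by at least 0.189 between sets. Because both embryoid body sets paired an array labelled Bmi1 with a vector array, differences are also given within them. Markers fitted the labelled stages. The mean level of 5 ES cell markers, Pou5f1 among them, was 9.25 to 11.32 in embryoid bodies and 13.15 to 13.44 in ES cells, and Afp, a visceral endoderm gene, was at 11.42 to 12.37 in embryoid bodies against 2.69 to 2.89 in ES cells. The ES cell markers were higher in the replicate 2 embryoid bodies, at 10.83 in those labelled Bmi1 and 11.32 with vector, than in the replicate 1 embryoid bodies, at 9.60 and 9.25.

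Which members were near background at day 10 was read against 86 probe sets of olfactory, vomeronasal and taste receptor genes, which these cells are not known to use. A probe set was near background on an array at or below their 95th percentile there. This threshold was 6.50 and 5.66 in the embryoid bodies labelled Bmi1, 6.38 and 5.68 in the vector embryoid bodies (replicates 1 and 2) and 5.48 to 5.64 in ES cells. By this rule 3 of the 9 members, Gsc, Cdx1 and Cdx4, were near background on all 4 embryoid body arrays. Mesp1 and Cdx2 were above the threshold on all 4, by as little as 0.038 (Mesp1, vector replicate 1) and 0.20 (Cdx2, labelled Bmi1 replicate 1). Eomes was above it on the 2 replicate 2 arrays, and Mixl1, Evx1 and Lhx1 on 1 array, vector replicate 2. Leaving out that array raised the count near background to 6 of 9. In ES cells Gsc, Lhx1 and Cdx4 were near background on all 4 arrays.

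**Figure D1:**
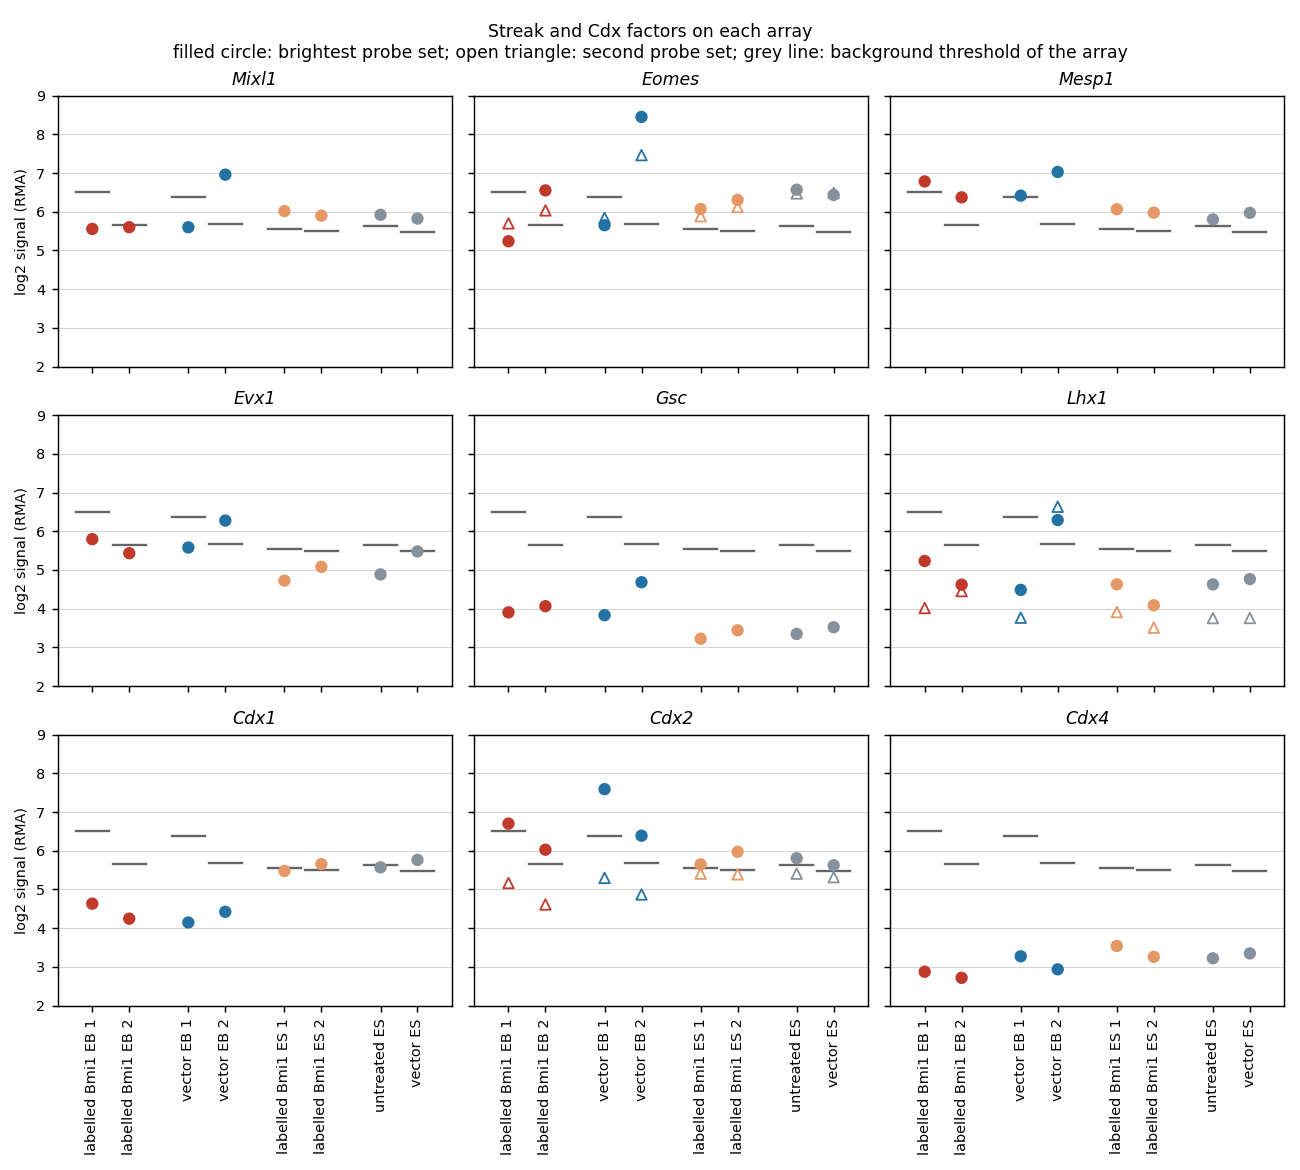
Log2 signal of the 9 measured members (y axis) on each of the 8 arrays (x axis), by group. Filled circles are the brightest probe set, open triangles the second probe set of Eomes, Lhx1 and Cdx2, and grey lines each array's background threshold. Vector embryoid body replicate 2 is the array on which Mixl1, Evx1 and Lhx1 stand above the line at day 10, while Gsc and Cdx4 stay below it on all arrays.

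Because Eomes and Lhx1 were high together on a single array while Mesp1 and Cdx2 were above background on all, the 250 bases before the annotated start of these 4 genes are shown, 5′ to 3′, from RefSeq on GRCm38.p6, with CpG sites in capitals, since Polycomb complexes are known to bind CpG-rich promoters.
Eomes (chr9:118477939-118478188, plus strand): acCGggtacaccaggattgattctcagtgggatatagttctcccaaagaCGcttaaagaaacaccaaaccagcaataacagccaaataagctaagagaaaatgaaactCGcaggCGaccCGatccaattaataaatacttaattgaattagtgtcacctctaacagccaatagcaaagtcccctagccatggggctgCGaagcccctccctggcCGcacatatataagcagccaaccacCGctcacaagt
Lhx1 (chr11:84525535-84525784, minus strand): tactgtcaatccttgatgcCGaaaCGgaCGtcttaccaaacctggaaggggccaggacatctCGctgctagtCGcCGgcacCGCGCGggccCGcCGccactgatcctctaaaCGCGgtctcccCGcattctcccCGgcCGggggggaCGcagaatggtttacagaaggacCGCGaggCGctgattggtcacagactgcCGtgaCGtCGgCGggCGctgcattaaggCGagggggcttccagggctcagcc
Mesp1 (chr7:79793591-79793840, minus strand): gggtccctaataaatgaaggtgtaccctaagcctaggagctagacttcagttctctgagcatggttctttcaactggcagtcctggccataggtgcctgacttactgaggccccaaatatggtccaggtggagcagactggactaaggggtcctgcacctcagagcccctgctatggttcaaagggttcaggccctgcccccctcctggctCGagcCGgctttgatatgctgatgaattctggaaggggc
Cdx2 (chr5:147307250-147307499, minus strand): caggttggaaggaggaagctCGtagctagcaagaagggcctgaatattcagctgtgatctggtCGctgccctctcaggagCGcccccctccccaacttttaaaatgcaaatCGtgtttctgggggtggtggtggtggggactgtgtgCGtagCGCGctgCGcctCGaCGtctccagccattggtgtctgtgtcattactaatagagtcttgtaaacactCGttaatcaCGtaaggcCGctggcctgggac
The window of Lhx1 held 26 CpG sites, more than 90.4% of the 32841 such windows in the table, that of Cdx2 13, that of Eomes 8 and that of Mesp1 2, against a median of 6 over all windows. Of the members near background at day 10, Gsc had 22 and Cdx4 5, and Evx1 had 10. Any relation of CpG count to signal was not tested. Of 5 motifs searched on both strands, none was found in the windows of Eomes, Lhx1 or Cdx2. They were the TCF/LEF core CTTTGA, which 13.8% of all windows hold, the FOXH1 motif AATNCACA (3.19%), the T-box core AGGTGTGA (1.12%), the Cdx motif TTTATNG (9.81%) and the TATA box TATAAA (12.4%). Mesp1 held the TCF/LEF core at 72 to 67 bases before its start, as the reverse complement, and at 31 to 26 bases. Evx1 held 1 match to the Cdx motif, at 230 to 224 bases before its start, and Gsc 1 match to TATAAA, at 164 to 159 bases. Only these letters, with N as any base, were searched, so near matches such as other forms of a TATA box were not counted. RefSeq windows were found for 7 of the 9 measured members. None was found for Mixl1, and Cdx1 was not looked up.

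The main comparison set these factors at day 10 in embryoid bodies labelled Bmi1 against those with vector. Means were lower in embryoid bodies labelled Bmi1 for 8 of the 9 members, Gsc and Cdx4 among them, whose values near background carry no order, and none passed the test. Of the 5 members bright enough to enter it, none was called by limma, with adjusted p from 0.81 to 0.997, 0 at an unadjusted p under 0.05, beside 0.139% of the 12982 genes tested. With the replicate number of the embryoid bodies as a block, the count stayed at 0 beside 2.09% of genes, with adjusted p from 0.11 to 0.77, and 3 members, Mixl1, Eomes and Cdx2, had an unadjusted p under 0.05, as did 21.3% of all tested genes (7.06% without the block). Groups overlapped in all 5 tested members, while 25.2% of tested genes had groups that did not. Of the 6 members above background on at least 1 embryoid body array, 6 were lower in embryoid bodies labelled Bmi1 within the replicate 2 arrays and 3 within the replicate 1 arrays. Mixl1, Evx1 and Lhx1 were among the 6 through vector replicate 2 alone, so their order within the replicate 2 arrays followed from that choice. The same count was not taken over all genes. In bulk samples fewer cells of a type and less RNA per cell cannot be told apart.

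Eomes, a T-box factor that cells need to leave the streak as mesoderm and endoderm, had the widest range. It read 5.24 and 6.55 in embryoid bodies labelled Bmi1 (replicates 1 and 2) and 5.65 and 8.45 in vector embryoid bodies. The replicate 1 arrays of both groups were near background, and vector replicate 2 was the highest of all 8 arrays. The difference was -1.16 ± 0.83 (log2, SE of the limma fit, 2 arrays per group, adjusted p = 0.88), and -0.41 and -1.90 within the replicate 1 and 2 arrays. The second probe set gave 5.70 and 6.03 in embryoid bodies labelled Bmi1 and 5.84 and 7.46 in vector embryoid bodies. Both probe sets thus had their highest value on the same array. ES cell markers were also higher on the replicate 2 arrays, and Eomes in ES cells was at 6.07 to 6.57. The part of ES cells in the Eomes values was not tested. Without vector replicate 2 the unblocked difference was 0.24, but that fit set both arrays labelled Bmi1 against vector replicate 1 alone, across the distribution sets. Within the replicate 1 arrays the difference was still -0.41, between 2 values near background.

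Mixl1, a homeobox factor of the streak that acts in mesoderm and endoderm formation, was at 5.56 and 5.60 in embryoid bodies labelled Bmi1 and at 5.60 and 6.96 in vector embryoid bodies. Vector replicate 2 stood apart, and the other 3 arrays were near background. The difference was -0.70 ± 0.39 (log2, SE, 2 arrays per group, limma adjusted p = 0.81), or -0.044 and -1.36 within the sets, and without vector replicate 2 it was -0.022. Lhx1, a LIM homeobox factor of the anterior streak and later of the kidney, did not pass the filter on dim genes and was not tested. It read 5.23 and 4.62 in embryoid bodies labelled Bmi1 and 4.49 and 6.29 in vector embryoid bodies, and its second probe set 4.02 and 4.45 against 3.77 and 6.63. On both probe sets vector replicate 2 was the highest array and the only one above background.

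Mesp1, which marks the first mesoderm to leave the streak and the heart precursors, was above background on all 8 arrays, though by just 0.038 on vector embryoid body replicate 1. It read 6.78 and 6.37 in embryoid bodies labelled Bmi1 and 6.42 and 7.03 in vector embryoid bodies, and the groups overlapped. The difference was -0.15 ± 0.25 (log2, SE, 2 arrays per group, limma adjusted p = 0.997), and it had opposite signs in the sets, 0.37 and -0.66. Evx1, a homeobox factor of the posterior streak, was dimmer and was not tested. It was at 5.80 and 5.43 in embryoid bodies labelled Bmi1 and 5.58 and 6.28 in vector embryoid bodies, again highest in vector replicate 2. Gsc, the goosecoid factor of the organizer, stayed between 3.83 and 4.68 in all embryoid bodies, under the threshold, so its values carry no order between groups.

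**Figure D2:**
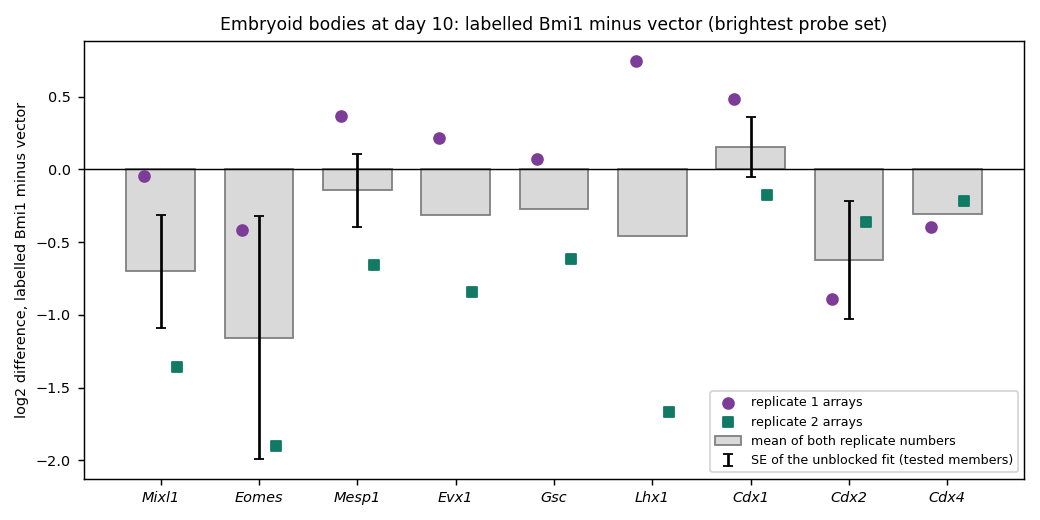
Log2 difference of embryoid bodies labelled Bmi1 minus vector embryoid bodies (y axis) for each member (x axis). Grey bars are the mean over both replicate numbers, purple circles the replicate 1 arrays, green squares the replicate 2 arrays, and error bars the SE for the 5 tested members. All 9 squares lie below 0, whereas the circles of 5 members lie above it. Gsc, Cdx1 and Cdx4 were near background on all 4 arrays.

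Among the Cdx factors Cdx2 was the one above background at day 10. It read 6.70 and 6.03 in embryoid bodies labelled Bmi1 and 7.59 and 6.39 in vector embryoid bodies. Its signal was higher in the replicate 1 than in the replicate 2 array of each group, the reverse of Eomes, but so were the thresholds. It stood above them by 0.20 and 0.37 in embryoid bodies labelled Bmi1 (replicates 1 and 2) and by 1.21 and 0.71 with vector. Against the threshold only the vector group thus kept this order. Cdx2 was lower in embryoid bodies labelled Bmi1 within both sets, with differences of -0.89 and -0.36. The difference of -0.63 ± 0.40 did not pass (log2, SE, 2 arrays per group, limma adjusted p = 0.86, and 0.12 with the replicate block), and it ran from -1.23 to -0.025 over the fits without 1 array. Its second probe set was at 5.17 and 4.61 in embryoid bodies labelled Bmi1 and 5.30 and 4.87 in vector embryoid bodies, all near background. Cdx1 was at 4.63 and 4.25 in embryoid bodies labelled Bmi1 and 4.15 and 4.42 in vector embryoid bodies, giving a difference of 0.15 ± 0.21 (log2, SE, 2 arrays per group, limma adjusted p = 0.99). Cdx4, a factor that drives blood formation in ES cells when overexpressed, was the dimmest member, at 2.72 to 2.87 in embryoid bodies labelled Bmi1 and 2.94 to 3.27 in vector embryoid bodies, far below the threshold. Its groups did not overlap, but values so far under the threshold carry no order.

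Replicates of vector embryoid bodies lay far apart for these genes. Vector replicate 2 was the highest of the 8 arrays, and above background, for 5 of the 9 members, namely Mixl1, Eomes, Mesp1, Evx1 and Lhx1. It was the highest for 3 of the 5 tested members and for 9.08% of all tested genes. The vector replicate 2 minus replicate 1 difference was 2.80 for Eomes, 1.80 for Lhx1, 1.36 for Mixl1, 0.70 for Evx1 and 0.61 for Mesp1, and -1.20 for Cdx2. In embryoid bodies labelled Bmi1 the same difference was 1.31 for Eomes, -0.67 for Cdx2 and between -0.61 and 0.044 for Lhx1, Mixl1, Evx1 and Mesp1. Lhx1, Mixl1 and Evx1 were near background on both of these arrays, so their values there carry no order. The second probe set of Lhx1 gave 0.44 there and 2.87 with vector. Mesp1 stood above the threshold by 0.28 and 0.71 there (replicates 1 and 2), though its signal fell. Over all tested genes the median difference between replicates was 0.13 in vector embryoid bodies, where 7.89% of genes exceeded 1, and 0.16 in embryoid bodies labelled Bmi1.

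**Figure D3:**
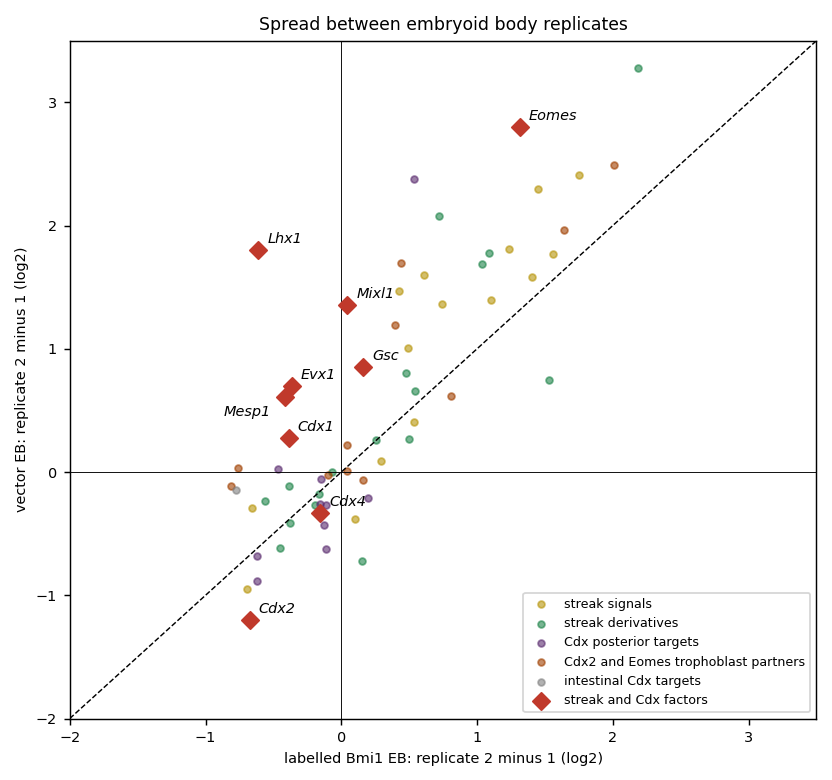
Difference between replicates 2 and 1 in vector embryoid bodies (y axis, log2) against that in embryoid bodies labelled Bmi1 (x axis, log2) for the members (red diamonds) and the tested genes of 5 lists of related genes (small points). The dashed line marks equal differences. Eomes, Lhx1 and Mixl1 lie well above the line, and Cdx2 lies below it, at -1.20 and -0.67. Lhx1 and Mixl1 were near background on all embryoid body arrays but vector replicate 2.

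Genes of the signals that start the streak showed no call either. Of 18 listed genes 15 were tested, 10 lower and 5 higher in embryoid bodies labelled Bmi1, with a median of -0.23 beside -0.044 over all tested genes. By limma 0 were called with or without the block. At an unadjusted p under 0.05 there were 0 without the block and 2 with it, beside 7.06% and 21.3% of all tested genes. The 4 with the smallest p were Furin, the protease that matures Nodal, at -0.30, Gdf3, a Nodal-related ligand, at -0.58, Foxh1, the nuclear partner of Smad proteins, at -0.23, and Nodal at -0.36. Nodal read 7.71 and 8.82 in embryoid bodies labelled Bmi1 and 7.93 and 9.32 in vector embryoid bodies. It was thus higher on both replicate 2 arrays. Replicate 2 was above replicate 1 for 13 of the 15 genes in embryoid bodies labelled Bmi1 (64.3% of all tested genes) and for 12 in vector embryoid bodies (59.2%). Within the replicate 1 and 2 arrays the differences were -0.21 and -0.50 for Nodal and -0.49 and -0.67 for Gdf3. Without vector replicate 2 the unblocked differences had the opposite sign, 0.34 and 0.21. That fit set both arrays labelled Bmi1 against vector replicate 1 alone, across the distribution sets.

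Genes of the cells that leave the streak were also uncalled by limma without the block, with 2 at an unadjusted p under 0.05, beside 7.06% of all tested genes. Of 21 listed, 18 were tested, 11 lower and 7 higher in embryoid bodies labelled Bmi1, with a median of -0.15. With the block 1 was called lower, beside 2.09% of all tested genes called in either direction. This was Sox17, a definitive and visceral endoderm factor. It read 8.10 and 8.64 in embryoid bodies labelled Bmi1 and 8.87 and 9.53 in vector embryoid bodies, giving a difference of -0.83 ± 0.28 (log2, SE, 2 arrays per group, limma adjusted p = 0.53, and 0.037 with the block). Kdr, a receptor of early mesoderm and endothelium, was at -0.55, Dll1, a Notch ligand of somite precursors, at -0.43, and Hhex, an anterior endoderm factor, at -0.49. Groups did not overlap for Sox17, Kdr and Dll1, which were named for their small p, nor for 25.2% of all tested genes. The mean of 4 visceral endoderm markers, Sox17 among them, was 8.95 and 8.69 in embryoid bodies labelled Bmi1 and 9.09 and 9.87 in vector embryoid bodies. Of these markers Afp was higher within both sets, at 12.37 and 11.45 against 11.46 and 11.42, while Ttr, Apoa1 and Sox17 were lower. The mean of 3 endothelial markers was 6.31 and 7.03 against 7.53 and 7.64. Cdh5 overlapped between groups, at 6.70 and 7.25 against 7.25 and 7.12, while Pecam1 and Tek were lower within both sets. The part of these cell types in the differences was not tested.

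Posterior genes that Cdx factors are known to regulate included the 1 call of these lists without the block. Of 16 listed, 10 were tested, 8 lower and 2 higher, with a median of -0.30, and Hoxa10 was called, beside 0.139% of all tested genes. Hoxa10 read 4.99 and 5.19 in embryoid bodies labelled Bmi1, while those with vector had 6.77 and 6.56, and the fitted difference was -1.57 ± 0.19 (log2, SE, 2 arrays per group, limma adjusted p = 0.047). Both values with the Bmi1 label were near background, so the size of the difference is uncertain, and Hoxa10 passed the filter on dim genes through the 2 vector embryoid body arrays alone, so its entry into the test was not independent of this difference. Over 16 alternatives the difference stayed between -1.68 and -1.47, while the adjusted p ran from 0.012 to 0.73 and the call was lost in 14, among them every fit without 1 array other than vector replicate 2. With the block 2 of the 10 were called lower, beside 2.09% of all tested genes called in either direction. The second was Hoxd10, another posterior homeobox gene, at -1.21 (limma adjusted p = 0.023, and 0.18 without the block). It too passed the filter through the 2 vector embryoid body arrays alone, with 5.78 and 5.67 in embryoid bodies labelled Bmi1 and 7.25 and 6.63 in vector embryoid bodies. With the Bmi1 label its replicate 1 value was near background (threshold 6.50) and its replicate 2 value at the threshold (5.66), so the size of this difference is uncertain too. Hoxd9 was at -0.84 and Hoxc9 at -0.28. Cdx2 was lower on the same arrays, but its difference passed neither fit.

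Trophoblast genes, partners of Cdx2 and Eomes in that lineage, mostly had higher means in embryoid bodies labelled Bmi1. Of 14 listed, 11 were tested and 9 were higher, with a median of 0.44. By limma 0 were called without the block, 5 had an unadjusted p under 0.05, beside 7.06% of all tested genes, and 2 were called higher with the block, beside 2.09% of all tested genes called in either direction. Plac1, a placental protein, read 10.07 and 9.26 in embryoid bodies labelled Bmi1 and 8.24 and 8.12 in vector embryoid bodies, giving a difference of 1.49 (limma adjusted p = 0.15, and 0.017 with the block). Peg10, an imprinted placental gene, was at 1.26 (limma adjusted p = 0.33, and 0.027 with the block). Its vector replicate 1 value of 6.26 was near background (threshold 6.38), so the size of this difference is uncertain. Tfap2c was at 1.51 (limma adjusted p = 0.61, and 0.11 with the block) and Ascl2 at 0.89 (0.47, and 0.092 with the block). Of 4 trophoblast markers 2 had a probe set, Plac1 itself and Tpbpa, and Tpbpa read 5.56 and 7.88 in embryoid bodies labelled Bmi1 and 4.39 and 4.53 in vector embryoid bodies, above background on 1 array, labelled Bmi1 replicate 2. Their part in these values was not tested. Cdx2 and Eomes had lower means in embryoid bodies labelled Bmi1. Of 9 intestinal genes that Cdx factors regulate, 1 was bright enough to be tested, Hnf4a, at -0.29 and uncalled.

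In ES cells, before differentiation, the comparison of cells labelled Bmi1 with control cells gave differences between -0.34 and 0.13 for the 9 members. By limma 0 of the 5 tested were called, with adjusted p at 1.00 for all and 0 at an unadjusted p under 0.05, beside 0.0462% of all genes, and 0 with the block beside 1.66%. Eomes was at 6.07 and 6.31 in ES cells labelled Bmi1 and 6.57 and 6.43 in control ES cells, that is, a difference of -0.31 ± 0.83 (log2, SE, 2 arrays per group). Its second probe set read 5.89 and 6.12 in ES cells labelled Bmi1 and 6.47 and 6.49 in control ES cells. The groups did not overlap on either probe set, as for 45.6% of all tested genes, and of the 5 tested members the same held for Mesp1, at 6.06 and 5.98 against 5.80 and 5.97. Cdx1 was at 5.48 and 5.66 in ES cells labelled Bmi1 and 5.57 and 5.76 in control ES cells, about the threshold. The difference between the 2 stages in the effect of the label was called for 0 of the 5 members beside 0% of genes without the block (887 genes had an unadjusted p under 0.05), and for 0 beside 0.824% with it. It was -0.84 for Eomes, -0.79 for Mixl1 and -0.72 for Cdx2.

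Against ES cells, Cdx1 was the member called at day 10 under both labels. With the Bmi1 label it fell to 4.63 and 4.25 in embryoid bodies, against 5.48 and 5.66 in ES cells, by -1.13 ± 0.21 on the log2 scale (SE, 2 arrays per group, limma adjusted p = 0.0032). It fell to 4.15 and 4.42 in vector embryoid bodies, against 5.57 and 5.76 in control ES cells, by -1.38 ± 0.21 (adjusted p = 0.0014). In every alternative in which Cdx1 was tested both falls were called, the fit with no filter included. Its embryoid body values were all near background, and it passed the filter on dim genes through ES cell arrays alone, so its entry into the test was not independent of this difference. Each distribution set held 1 stage, so stage and set cannot be told apart, and 58.5% of all genes were called between vector embryoid bodies and control ES cells and 59.2% between embryoid bodies and ES cells labelled Bmi1. Of the 5 tested members, 3 were called between the vector or control samples and 1 between the samples labelled Bmi1, which is near the one share and below the other.

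Cdx2 and Mesp1 were the other members called, both higher in vector embryoid bodies than in control ES cells. Cdx2 was at 7.59 and 6.39 in vector embryoid bodies and at 5.81 and 5.63 in control ES cells, that is, a difference of 1.27 ± 0.40 (log2, SE, 2 arrays per group, limma adjusted p = 0.030). Its second probe set had the opposite sign, -0.28, below the threshold on every array, and the mean of both probe sets gave 0.50 (adjusted p = 0.20). Mesp1 was at 6.42 and 7.03 in vector embryoid bodies and at 5.80 and 5.97 in control ES cells, that is, a difference of 0.83 ± 0.25 (adjusted p = 0.024). Both calls were lost after quantile normalization (adjusted p = 0.10 for Cdx2 and 0.13 for Mesp1), after median centring (0.059 and 0.12) and without either control ES cell array (0.087 to 0.12 and 0.073 to 0.12). Without vector replicate 1 the Cdx2 difference was 0.67 (0.11), and without vector replicate 2 that of Mesp1 was 0.53 (0.081). The corresponding differences between embryoid bodies and ES cells labelled Bmi1 were 0.55 ± 0.40 for Cdx2 and 0.56 ± 0.25 for Mesp1 (log2, SE, 2 arrays per group, adjusted p = 0.27 and 0.091). The one for Mesp1 was called without either vector embryoid body array (adjusted p = 0.034), where the estimate of the spread changed and its own arrays did not.

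Mixl1 and Eomes at day 10 lay within or below their ES cell ranges on 3 of the 4 arrays. Mixl1 was at 5.56 and 5.60 in embryoid bodies labelled Bmi1 and 5.60 and 6.96 in vector embryoid bodies, against 5.82 to 6.02 in all ES cells. Its differences from ES cells were -0.38 ± 0.39 in samples labelled Bmi1 and 0.41 ± 0.39 in vector or control samples (log2, SE, 2 arrays per group, limma adjusted p = 0.43 and 0.40). Those of Eomes were -0.29 ± 0.83 and 0.55 ± 0.83 (adjusted p = 0.78 and 0.60). Without vector replicate 2 the vector or control values were -0.27 for Mixl1 and -0.85 for Eomes. Without vector replicate 1 they were 1.09 and 1.95, and both were called (limma adjusted p = 0.0030 and 0.014). Evx1, Gsc, Lhx1 and Cdx4 were not tested between stages. Gsc and Cdx4 were near background on all 8 arrays, Lhx1 on all but vector replicate 2, and Evx1 on all but vector replicate 2 and, at the threshold, the vector ES cell array, so no difference between stages is read from them.

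**Figure D4:**
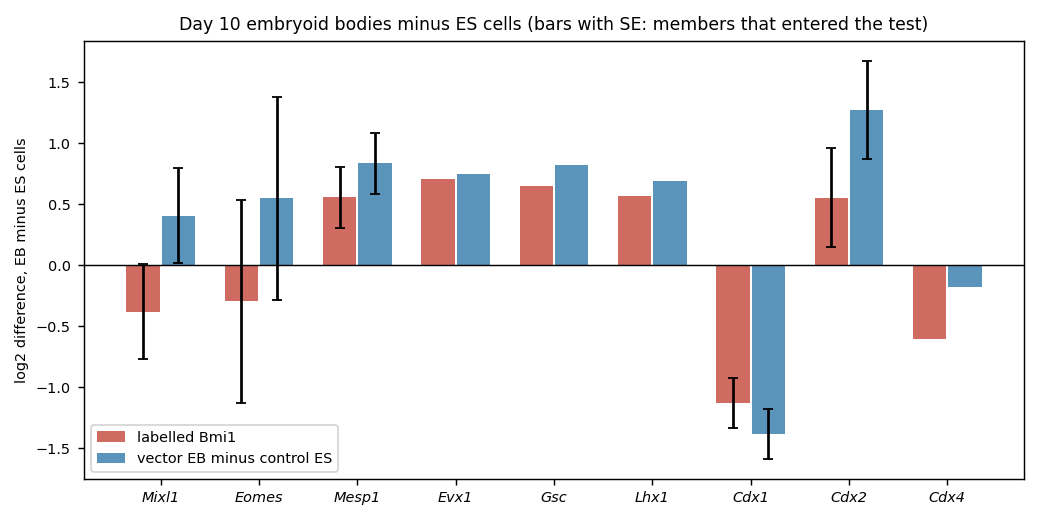
Log2 difference of day 10 embryoid bodies minus ES cells (y axis) for each member (x axis), in samples labelled Bmi1 (red) and in vector embryoid bodies against control ES cells (blue). Error bars are the SE for the 5 tested members, and the 4 members without them were near background on most or all arrays. Cdx1 is lower in both, at -1.13 and -1.38, and Cdx2 and Mesp1 are the members called higher, in the blue bars alone.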

How the data were processed

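The authors deposited log2 expression values of 8 arrays. RMA is the tool that the submitters' processing notes name, without a version. No source used here states which arrays were normalized together, and unequal scaling between sets affects stage differences most. Depth in the sense of counts does not apply, and the number of arrays limits the precision.

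From these values, 64 control probe sets were set aside. Of the other 45037, 34945 had 1 symbol, 932 several and 9160 none. A gene was represented by its brightest probe set, and genes above the array median on at least 2 arrays were tested (12982 genes, 5 of the 9 measured members). A model with 4 groups was fitted with limma 3.58.1 in R 4.3.3 (lmFit, eBayes), with 4 residual degrees of freedom, two-sided p-values, Benjamini-Hochberg adjustment over all genes tested and a threshold of 0.05. The fit was run on simulated data with independent noise, the same spread for all genes and no replicate sets. That run does not show how the fit behaves with the array sets seen here. Same-numbered embryoid body arrays deviated together (r = 0.72), as the distribution sets do, and the labels do not say that numbers pair samples, so the replicate block is given as an alternative and for the sets.

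The members, 5 lists of related genes and the rules were chosen with earlier results of these data known. Named were all members and up to 4 tested genes of each list with the smallest p in embryoid bodies, plus the 3 genes closest in pattern to each member above background on at least 2 arrays. Alternatives covered the dim filter, probe set choice, scaling, prior, array weights, 1 stage alone, the block, each array left out and the background threshold. Promoter windows came from RefSeq (GRCm38.p6).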

Additional observations from a re-analysis of the deposited data

How the results depend on the processing

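Of 400 recomputed differences of tested members, 375 kept their sign and their side of the threshold, 11 lost a call, 4 gained one and 10 changed sign, the last all in fits without 1 array. Many of these could not change sign. The dim filter, the prior, 1 stage alone, the block and an array left out of another group leave the difference of a member or list gene as it was. In those fits only the call could change. No tested member was called for the effect of the label at either stage, or for its difference between stages, in any fit, and with the 75th percentile filter none was bright enough to be tested. That filter therefore gave 0 members called between stages. In vector or control samples 1 member was called with quantile normalization or median centring, and 1 to 4 without 1 array. In samples labelled Bmi1 2 were called with no filter, and 1 to 2 without 1 array. Scaling moved the median of all genes between stages by 0.20 and 0.25 (quantile) and -0.32 and -0.35 (centring). Of 293 recomputed differences of named list genes, 268 kept both, 14 lost a call, all of Hoxa10, 5 gained one and 6 changed sign. All 6 came without 1 array, where embryoid body differences ran from -1.37 to 0.21 for Gdf3, -1.05 to 0.34 for Nodal, -0.55 to 0.10 for Foxh1 and -0.68 to 0.093 for Hnf4a.

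Without 1 array, the embryoid body difference ran from -2.56 to 0.24 for Eomes, -0.45 to 0.16 for Mesp1 and -0.039 to 0.35 for Cdx1, and the ES cell difference of Cdx2 from -0.069 to 0.26. The difference between stages in the effect of the label ran from -2.24 to 0.56 for Eomes and -0.58 to 0.028 for Mesp1. Stage differences in vector or control samples ran from -0.85 to 1.95 for Eomes and -0.27 to 1.09 for Mixl1, and in samples labelled Bmi1 from -0.95 to 0.36 for Eomes. The day 10 background count was 6 without vector replicate 2, 3 without each other embryoid body array and 3 or 4 under the other thresholds and with quantile normalization. 

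Over all genes, 18 were called in embryoid bodies, and 271 with the replicate block, 2 with the 75th percentile filter, 6 with centring, 3 with trend and robust prior, 0 with array weights, 11 over every probe set, 0 from embryoid bodies alone and 0 to 218 without 1 array (218 without vector replicate 2). In ES cells 6 were called, and 216 with the replicate block, 3 with the mean of probe sets, 0 with quantile normalization, 641 with array weights, 0 over every probe set, 139 from ES cells alone and 0 to 50 without 1 array. The difference of the effects gave 0, and 107 with the replicate block, 1 with the mean of probe sets and 0 to 100 without 1 array. Between stages 7593 were called in vector or control samples (12653 over every probe set, 5241 to 8284 without 1 array) and 7688 in samples labelled Bmi1 (12774, and 5236 to 8496). Where no value shows it, the cause was not tested. The number of arrays and the low signal of most members limit what can be seen.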

Other observations

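The genes closest in pattern to single members over the 8 arrays were found by Pearson's r, as a description without a test, over arrays that share the 3 distribution sets. Those closest to Eomes were Snhg17 (r = 0.99), Pga5 (0.98) and Arl14ep (0.96). Snhg17 read 7.04 and 7.69 in embryoid bodies labelled Bmi1 and 7.07 and 8.52 in vector embryoid bodies. It was highest in vector replicate 2, though genes picked by r with a member share its pattern by that choice. Those closest to Cdx2 were Gpihbp1, which holds lipoprotein lipase on capillary endothelium (0.99), the protease Adam8 (0.99) and Emc3 (0.98). Gpihbp1 read 6.45 and 5.90 in embryoid bodies labelled Bmi1 and 7.30 and 6.18 in vector embryoid bodies, the order of the 4 embryoid body arrays for Cdx2. Closest to Cdx1 were Dcaf11 (0.998), Fam72a (0.995) and Plekhb1 (0.994), all lower in embryoid bodies than in ES cells. Closest to Mesp1 were Rab5b, Plekhn1 and Reln (0.96 to 0.97), to Mixl1 Mef2b, Ppp1r15a and Smg6 (0.91 to 0.92), and to Evx1 Vwa8, Naxe and Rab5b (0.91 to 0.93).

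The 6 list genes with the widest gap between the vector embryoid body replicates were singled out after their values were seen. Otx2, an anterior ectoderm and endoderm factor, read 6.15 and 8.33 in embryoid bodies labelled Bmi1 and 6.10 and 9.38 in vector embryoid bodies. Esrrb, a nuclear receptor of ES cells and trophoblast, read 6.14 and 8.15 in embryoid bodies labelled Bmi1 and 6.38 and 8.87 in vector embryoid bodies. Lefty2, a Nodal inhibitor, read 5.93 and 7.69 in embryoid bodies labelled Bmi1 and 5.83 and 8.24 in vector embryoid bodies. These replicate 2 values stood with higher ES cell markers, and ES cells themselves had 10.54 to 11.39 for Esrrb, 8.52 to 10.43 for Lefty2 and 7.03 to 8.29 for Otx2. Cyp26a1, which degrades retinoic acid, read 6.90 and 7.43 in embryoid bodies labelled Bmi1 and 6.67 and 9.04 in vector embryoid bodies. Fgf4, a growth factor of ES cells, read 6.27 and 7.72 in embryoid bodies labelled Bmi1 and 6.35 and 8.64 in vector embryoid bodies, with 10.34 to 10.67 in ES cells. Foxa2, a factor of the anterior streak and endoderm, read 7.52 and 8.24 in embryoid bodies labelled Bmi1 and 6.42 and 8.50 in vector embryoid bodies. ES cells had 4.65 to 5.54 for Cyp26a1 and 5.19 to 5.64 for Foxa2. On all 6 genes vector replicate 2 was the highest embryoid body array, which their choice by this gap favoured, so it adds nothing to the pattern of Eomes. The part of ES cells in these values was not tested.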
